A study of Anolis chlorocyanus and Anolis cybotes and Anolis osa with 24 samples.

Results

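Anolis cybotes and A. sagrei, a pair of trunk-ground lizards, were compared with A. chlorocyanus and A. osa in the expression profiles of their jaw and leg muscles. The comparison took all 24 RNA sequencing libraries of the series, 12 from cybotes and sagrei and 12 from the other pair. All animals were males. Each species had 3 jaw and 3 leg libraries of whole muscle, numbered 01, 03 and 08 in cybotes, 15, 16 and 17 in sagrei, 04, 06 and 08 in chlorocyanus, and 04, 05 and 07 in osa. The series set out to compare leg with jaw muscle and to relate expression to contractile physiology. The labels give no treatment, age, habitat or site of capture. Jaw and leg counts that carried the same title number were added together, which left 12 summed profiles, 6 for each pair of species.

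As background, anoles are small arboreal lizards in which similar body forms have arisen repeatedly in similar microhabitats. Trunk-ground anoles perch low on trunks, have long hind limbs, and run and jump to catch prey on the ground. A. cybotes is native to Hispaniola and A. sagrei to Cuba, and they belong to different branches of the anole tree. A. chlorocyanus is a trunk-crown species of Hispaniola and A. osa a mainland species of Central America. A. osa and A. sagrei both belong to the Norops clade, so shared habitat and shared ancestry pair sagrei with different partners. The split by clade also sets both species of Hispaniola against the others, so clade and island of origin cannot be told apart in it. Habitat, clade and origin are textbook knowledge here and are not given by the labels.

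Summed totals ran from 2821112 to 3760152 counts. They averaged 2979648 ± 141637 in cybotes and sagrei and 3098429 ± 349326 in the other pair (SD, n = 6; exact two-sided permutation p = 0.556, or 0.742 adjusted over the 4 technical measures compared). The number of identifiers detected, the share taken by the 10 most abundant genes and the scaling factor did not differ past the threshold either (exact permutation p = 0.959, 0.491 and 0.271). These permutations moved the profiles freely and took no account of species, so they do not show that the pairs were alike. The chlorocyanus 08 profile stood apart, with the highest total and scaling factor (1.265) and the lowest share for its 10 most abundant genes (19.9%). The table pairs its identifiers with no gene symbols, so muscle markers were not checked and no gene is described by its function.

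The question was whether the trunk-ground species lie together on one side of both other species more often than species paired in other ways. For every gene, 4 species can be split into pairs in only 3 ways. These set cybotes and sagrei, osa and sagrei (the Norops pairing), or cybotes and osa (the third pairing) against the rest. Each gene without tied means has exactly 1 split in which both species of a pair lie above or below both others. Of 9908 tested genes, 3131 (31.6%) had cybotes and sagrei together on one side, 3508 (35.4%) had osa and sagrei, and 3266 (33.0%) had cybotes and osa. An even division would give 33.3%. The trunk-ground pairing thus held the fewest genes of the 3.

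A gene was called when its contrast of 2 species means against the other 2 passed an adjusted p of 0.05 (edgeR quasi-likelihood F-test, Benjamini-Hochberg). The trunk-ground contrast called 1652 genes (16.7% of those tested), 807 higher (8.14%) and 845 lower (8.53%) in cybotes and sagrei. The last gene called had an adjusted p of 0.0498 and the first not called 0.0501, at absolute log2 fold changes of 0.53 and 0.55. In 1246 of the called genes (75.4%) both trunk-ground species lay on the same side of both others. These were 12.6% of the genes tested, 621 higher (6.27%) and 625 lower (6.31%). The balance of directions moved with scaling. With library sizes that leave out the 20 most abundant genes, the called genes split into 689 higher and 942 lower, and those on the same side into 512 and 723. The Norops contrast called 2153 genes (21.7%) and that of the third pairing 1841 (18.6%). On the same side, the Norops pairing gave 1697 such genes (17.1% of those tested) and the third pairing 1386 (14%). These were 78.8% and 75.3% of the genes their contrasts called. No overlap between the 6 and 6 profiles was seen in 317 called genes (3.2%) for the trunk-ground pairing, 138 higher (1.39%) and 179 lower (1.81%), against 495 (5%) and 363 (3.66%). These counts share all 12 profiles and are set side by side without a test of their difference.

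A stricter count asked that each of the 4 tests between a trunk-ground species and another species pass on its own, in 1 direction. It left 96 genes (0.969%) for the trunk-ground pairing, 46 higher (0.464%) and 50 lower (0.505%), and 84 of these had a gap of at least 2-fold. The Norops pairing had 163 (1.65%) and the third pairing 90 (0.908%). Here the trunk-ground pairing was not the lowest, but it was in 4 of 21 settings: by DESeq2 (124 against 125), by limma voom (83 against 84), without chlorocyanus 04 (97 against 98) and without osa 07 (65 against 73). The 96 fell to 58 without the osa 04 libraries and to 62 without the cybotes 08 libraries. The Norops pairing had the highest count of the 3 by each of these 4 rules in every setting tried, 21 or 22 per rule. By called genes on the same side, the trunk-ground pairing was the lowest in 20 of 22 settings. The exceptions left out osa 05 (1093, against 1046 for the third pairing) or sagrei 16 (1135, against 1115).

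**Figure D1:**
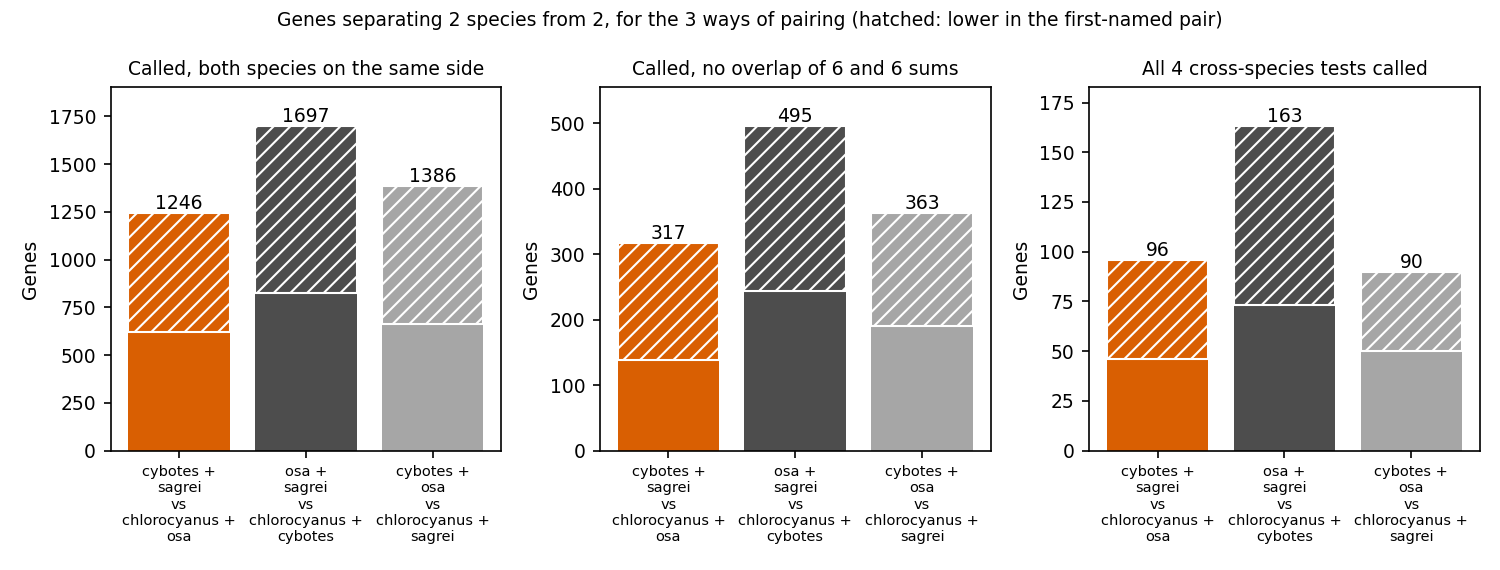
Genes that separate 2 species from the other 2, for the 3 ways of pairing; plain bars count genes higher and hatched bars genes lower in the first-named pair. The trunk-ground pairing has 1246 called genes on the same side against 1697 and 1386, 317 without overlap against 495 and 363, and 96 with all 4 tests called against 163 and 90.

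The p-values of the gene tests measure the spread between these animals within species. Taking the species as the unit leaves 2 against 2, for which an exact two-sided permutation p cannot go below 0.333. No test with the species as the unit was made. Reads of all species were counted on 1 set of identifiers, so expression and a sequence difference that changes mapping cannot be told apart. In whole muscle, fewer cells of a type and less RNA per cell cannot be told apart either.

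The width of the gap gave a second view. For each called gene on the same side, the gap is the smallest of the 4 absolute log2 differences between a trunk-ground species and another species. Its median was 0.54 in the trunk-ground pairing, 0.53 in the Norops pairing and 0.54 in the third. Of 9908 genes tested, at least a 2-fold gap was reached by 285, 357 and 286. At least a 4-fold gap was reached by 64, 82 and 46, and at least an 8-fold gap by 18, 27 and 12. In this fit trunk-ground genes were fewer than those of the third pairing at small gaps and more numerous at wide ones. The gap counts were made only with all 12 profiles and TMM scaling. Among the 18 genes, the gaps of ENSACAG00000028945 and ENSACAG00000006626 fell to 0.93 and 1.02 without sagrei 17. Of the 285 trunk-ground genes past 2-fold, 160 were higher and 125 lower in cybotes and sagrei. The median log2 fold change of the contrast was 1.31 in the 621 higher genes and -1.20 in the 625 lower ones, beside 0.01 over all genes tested. The widest gap was 6.74 among higher genes and 4.02 among lower ones. Among genes with no overlap between the profiles and at least 10 CPM on the higher side, the widest were 3.44 and 2.70. The genes with the widest gaps of all thus overlapped between the profiles or stayed under 10 CPM on the higher side. The gap counts set neither limit, so they include such genes. In 4 of the higher genes the 6 chlorocyanus and osa profiles held 0 counts, and none of the lower genes had 0 counts throughout cybotes and sagrei. A fold change against 0 counts has no measured size. Of the called genes on the same side, 8 had 0 counts on one side in the Norops pairing and 3 in the third pairing.

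**Figure D2:**
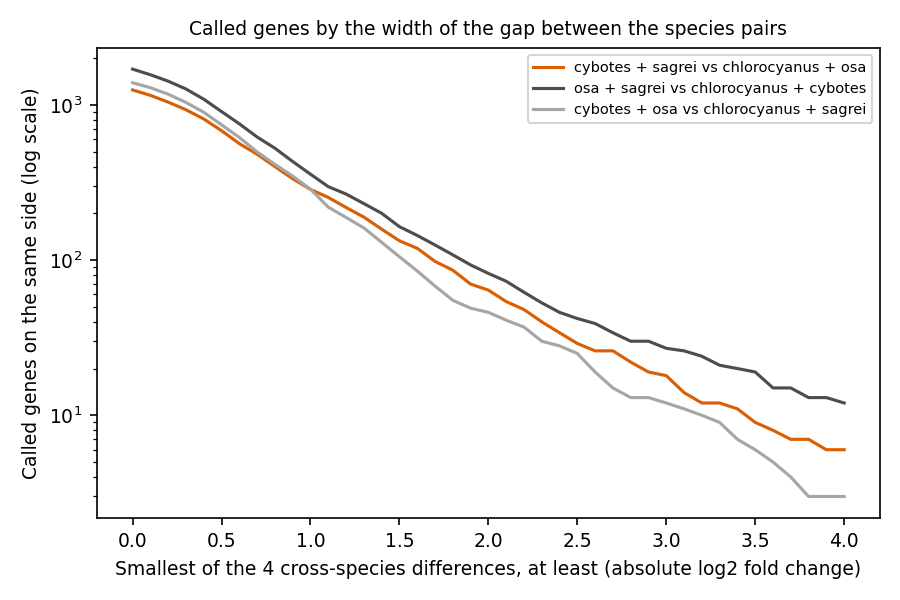
Number of called genes on the same side (vertical, log scale) whose smallest cross-species difference is at least the value on the horizontal axis (absolute log2 fold change), for each of the 3 pairings. The Norops curve stays uppermost, with 357 genes at 2-fold, and the trunk-ground curve and that of the third pairing meet there at 285 and 286 before the trunk-ground curve runs above.

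The 3 contrasts are orthogonal and add up to all of the variance between the 4 species means. Over the 9908 genes the trunk-ground contrast took 31.3% of it in log2 CPM, the Norops contrast 36.4% and the third 32.3%. Leaving out single title numbers moved the trunk-ground share between 30.1% and 32.5% and that of the third pairing between 30.4% and 33.9%. The trunk-ground share was the larger of these without chlorocyanus 08 (31.4% against 31%), osa 05 (32.1% against 30.4%) or sagrei 16 (32.5% against 31.6%), and both were 31.8% without cybotes 03. The Norops share was the highest in each of these fits.

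Single species were also set beside the pairs. Among the principal components of the 12 profiles, PC1 (26.4% of the variance) placed chlorocyanus at 48.14 to 81.24 and every other profile at or below -4.24. PC2 (21.8%) placed cybotes at -62.41 to -54.88 and the rest at or above 0.81. PC3 (17.6%) placed sagrei at -55.65 to -52.9 and the rest at or above 3.6. Osa lay clear at the other end of PC1 (-48.93 to -35.94) and of PC3 (24.89 to 40.52), so these components do not mark 1 species each. On none of the 11 components did the 6 trunk-ground profiles lie clear of the other 6, and the same held for the other 2 pairings. In tests of single species, 537 genes (5.42%) had chlorocyanus apart from each of the other 3 species, all 3 tests called in 1 direction. The count was 366 (3.69%) for osa, 324 (3.27%) for cybotes and 211 (2.13%) for sagrei. Each exceeded the 96 genes that set cybotes and sagrei together apart in all 4 tests, and the 163 of the Norops pairing. The single-species count asks for 3 tests and the paired count for 4. A gene also has 2 species at the ends of its order but only 1 pairing that can split it. The counts thus have unlike bases, and nothing is read from their order.

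**Figure D3:**
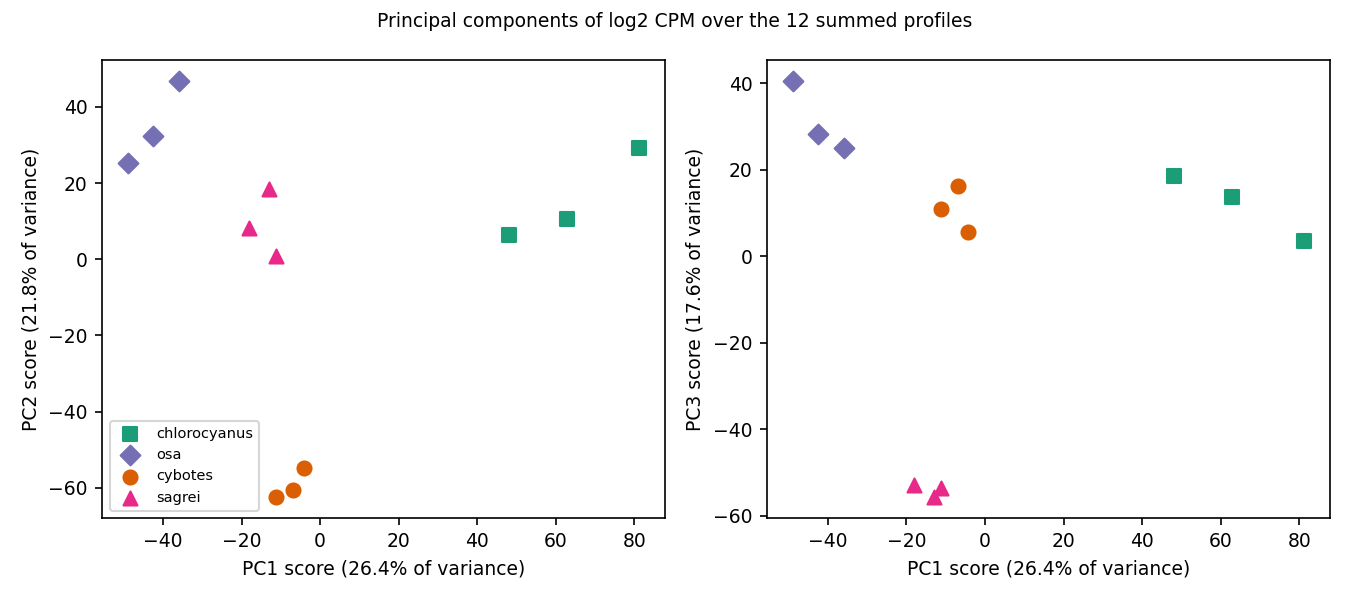
Scores of the 12 summed profiles on PC1 against PC2 (left) and PC1 against PC3 (right), from log2 CPM; each point is 1 title number and shape and colour give the species. Chlorocyanus lies alone at 48.14 and above on PC1, cybotes alone at -54.88 and below on PC2, and sagrei alone at -52.9 and below on PC3.

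Inside the 1246 trunk-ground genes, all 4 cross-species tests were called in 96 of them (7.7%), 3 in 178 (14.3%), 2 in 667 (53.5%), 1 in 245 (19.7%) and none in 60 (4.82%). In all 667 genes with 2 called tests, both tests involved 1 and the same species. The rule that chose the genes nearly fixes this. When both species of a pair lie on the same side, the 2 largest of the 4 differences always share a species. Nothing is therefore read from the shared species as such. The shared species was chlorocyanus in 238, cybotes in 183, osa in 138 and sagrei in 108. In these genes the other 2 cross-species tests, which left that species out, were not called. The closest approach was most often between sagrei and osa, in 390 genes (31.3%), and least often between cybotes and chlorocyanus, in 254 (20.4%). Sagrei and osa were also the species pair with the fewest called genes among all 6, at 1351 (13.6%), while cybotes and chlorocyanus had 2172 (21.9%). Cybotes and sagrei themselves were called apart in 153 of the 1246 genes (12.3%) and in 1548 of all genes tested (15.6%). Agreement within the pair was part of the rule that chose the 1246, so nothing is read from that lower share.

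The remaining 406 genes of the trunk-ground contrast were called without both species lying on the same side. In 348 of them exactly 1 of the 4 cross-species differences ran the other way. Over all 406 genes, with 58 counted more than once, the difference between cybotes and osa was reversed in 135, sagrei and osa in 123, sagrei and chlorocyanus in 120, and cybotes and chlorocyanus in 86.

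The genes called changed as single animals were left out. Each such fit also has fewer profiles, and whether the particular animal or the smaller number mattered was not tested. Each of the 12 title numbers was left out in turn, and between 882 and 1066 of the 1246 genes were called again on the same side. In all 12 fits 604 genes (48.5%) were called, 277 higher and 327 lower in the trunk-ground species. The corresponding figures were 941 of 1697 genes (55.5%) for the Norops pairing and 713 of 1386 (51.4%) for the third.

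By mean CPM over the 12 profiles, called genes on the same side made up 12.4% of 3605 genes under 10 CPM, 13.6% of 5073 genes from 10 to 100 CPM, and 9.65% of 1140 genes from 100 to 1000 CPM. In the same classes the Norops pairing had 17.4%, 17.8% and 14.6%, and the third pairing 12.9%, 15.7% and 10.4%. Over 1000 CPM the trunk-ground pairing had 1 gene of 90 (1.11%), while the Norops pairing had 4 and the third 8. That gene averaged 1590 ± 757 CPM in cybotes and sagrei and 494 ± 176 CPM in chlorocyanus and osa (SD, n = 6), or 1.66 higher on the log2 scale (SE 0.28, adjusted p = 0.00182 by edgeR). Its smallest cross-species gap was 0.90. In cybotes and sagrei 240 of the genes under 10 CPM were higher and 207 lower, 309 and 379 of those from 10 to 100 CPM, and 71 and 39 of those from 100 to 1000 CPM.

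Trunk-ground genes made up a small part of the counts. The 621 higher genes took 3.83% to 4.27% of the counts in the 6 cybotes and sagrei profiles and 1.72% to 2.24% in the other 6. The 625 lower genes took 1.16% to 1.57% and 2.34% to 4.05%. The ranges did not overlap, which the choice of genes on these same profiles favoured. The highest share of the lower genes, 4.05%, was in chlorocyanus 08, and the next was 3.19% in osa 07.

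By the ranking on the gap, 2 genes in each direction are given with all their values. They were taken from 107 higher and 138 lower called genes with no overlap between the profiles and at least 10 CPM on the higher side. The first 12 of each direction had gaps from 1.65 to 3.44 among higher and 1.64 to 2.70 among lower genes, on the log2 scale.

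ENSACAG00000028945 ranked first among the higher genes. Cybotes stood at 26.0, 17.9 and 17.1 CPM in 01, 03 and 08, and sagrei at 3.87, 3.25 and 72.7 CPM in 15, 16 and 17. Chlorocyanus stood at 0.82, 0.95 and 1.27 CPM in 04, 06 and 08, and osa at 2.28, 1.36 and 1.87 CPM in 04, 05 and 07. The lowest trunk-ground profile lay above the highest other profile, but sagrei 15 and 16 were close to osa and sagrei 17 was far above every other profile. In that animal both muscles were high, with 80.3 CPM in jaw and 63.8 CPM in leg. The contrast came to 4.04 on the log2 scale (SE 0.71, adjusted p = 0.00243 by edgeR), against a side that held 2 to 7 counts per profile. Without the sagrei 17 libraries it was 2.58 and the gap narrowed from 3.44 to 0.93. Not all 4 cross-species tests were called then, nor with limma voom or without cybotes 01, osa 04, osa 05 or osa 07, where the gap was 2.48 to 3.62. With DESeq2 they were not counted as called either, and the contrast had no adjusted p.

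ENSACAG00000006626, ranked second, shared much of that pattern. Its level was 67.7, 152 and 86.9 CPM in cybotes and 21.3, 29.2 and 301 CPM in sagrei, in the same order of title numbers. It was 7.79, 10.8 and 6.12 CPM in chlorocyanus and 14, 11.2 and 12.2 CPM in osa. The groups did not overlap, and sagrei 17 was again the highest profile. In cybotes 03 and 08 the leg libraries (222 and 135 CPM) stood well above the jaw libraries (31.4 and 28.7 CPM). The contrast came to 3.44 on the log2 scale (SE 0.57, adjusted p = 0.00174 by edgeR). It was 2.33 without the sagrei 17 libraries, where the gap was 1.02 in place of 3.04. Not all 4 tests were called there, nor with limma voom or without cybotes 03, osa 04, osa 05 or osa 07, where the gap was 2.24 to 3.13.

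The lower genes rested less on single animals. ENSACAG00000001449 stood at 2.40, 3.94 and 1.90 CPM in cybotes and at 2.32, 1.44 and 2.88 CPM in sagrei. It reached 28.7, 19.9 and 27.2 CPM in chlorocyanus and 14, 18.0 and 23.4 CPM in osa. All 6 trunk-ground profiles were below 4 CPM and all 6 others at 14 CPM or more. The trunk-ground values correspond to 4 to 13 counts in a profile. In chlorocyanus and osa the jaw library was the higher in each of the 6 animals, for example 42.5 CPM in jaw and 16.6 CPM in leg of chlorocyanus 04. On the log2 scale the contrast was -3.09 (SE 0.28, adjusted p = 5.27e-05 by edgeR) and ran from -3.28 to -2.99 as each title number was left out.

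ENSACAG00000017897 had 2, 1.52 and 2.67 CPM in cybotes and 2.71, 3.61 and 4.04 CPM in sagrei. The other species had 16.8, 16.1 and 10.3 CPM in chlorocyanus and 13.3, 22.4 and 19.0 CPM in osa. Again the groups did not overlap, with 4.04 CPM the highest trunk-ground value and 10.3 CPM the lowest of the others. The trunk-ground level rested on 5 to 14 counts per profile. On the log2 scale the contrast was -2.58 (SE 0.27, adjusted p = 9.28e-05 by edgeR) and ran from -2.69 to -2.49 as each title number was left out.

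**Figure D4:**
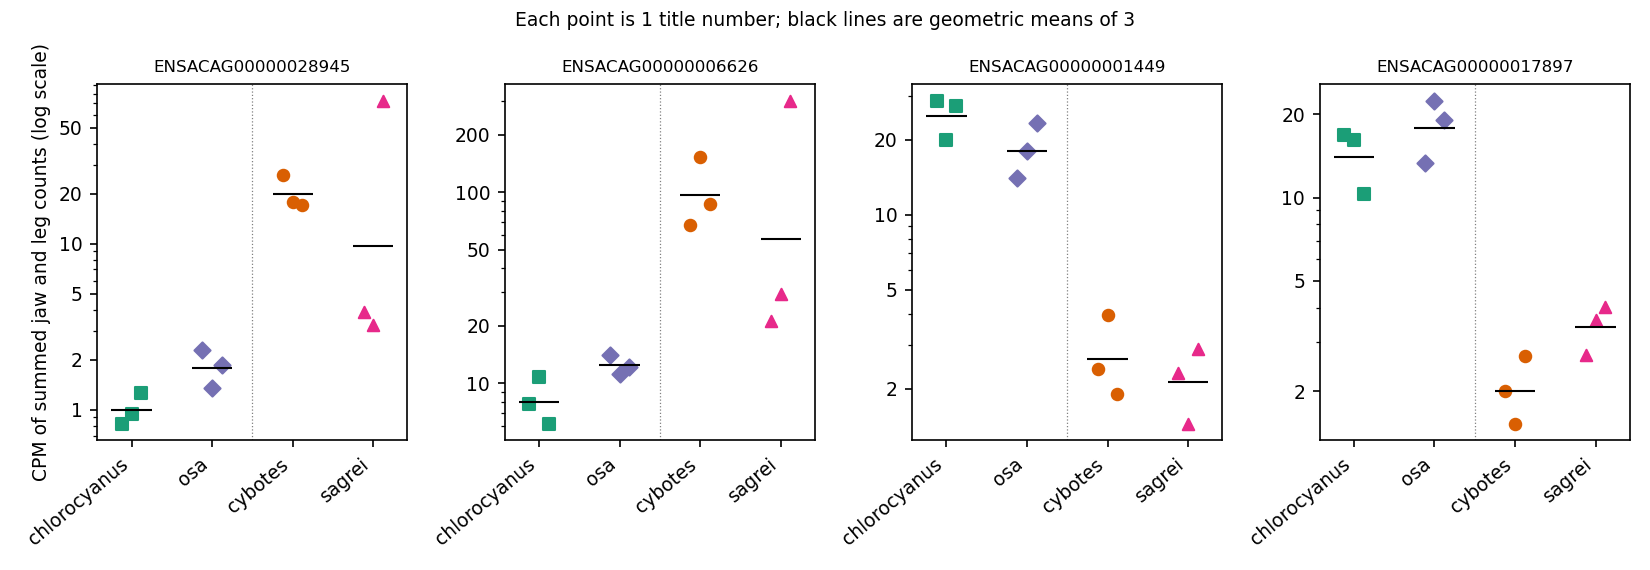
CPM of the summed jaw and leg counts (log scale) in the 12 title numbers for 2 higher and 2 lower genes. These had the widest gaps among called genes without overlap and with at least 10 CPM on the higher side. Black lines are geometric means of 3 and the dotted line divides the species pairs. In both higher genes sagrei 17 is the highest point, at 72.7 and 301 CPM, while in both lower genes every cybotes and sagrei point lies under every other point.

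Each muscle was then taken alone. In the jaw libraries 936 of 7805 genes (12%) were called with cybotes and sagrei on the same side, 455 higher (5.83%) and 481 lower (6.16%). By the scaling without the 20 most abundant genes the jaw split was 337 higher and 601 lower. In the leg libraries 765 of 8568 genes (8.93%) were called, 386 higher (4.51%) and 379 lower (4.42%). By the same scaling the leg split was 335 higher and 417 lower. The Norops pairing had 1347 genes in jaw (17.3%) and 1069 in leg (12.5%), and the third pairing 1042 (13.4%) and 964 (11.3%). In this fit the trunk-ground pairing was again the lowest of the 3 in both muscles. As title numbers were left out, its count ran from 722 to 932 in jaw and from 519 to 857 in leg. The other pairings were not recomputed by muscle in other settings, so whether this order holds there was not tested.

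The muscles shared many of these genes. Both lists held 391 genes, all with 1 direction. That is 43.2% of the 905 jaw genes tested in leg and 58.7% of the 666 leg genes tested in jaw. Over all genes tested, 8.93% were called on the same side in leg and 12% in jaw. Of the 905 jaw genes, 656 (72.5%) had both trunk-ground species on the same side in leg as well, and 19 (2.1%) had a contrast of opposite sign there. Jaw and leg libraries of a title number come in pairs that deviate together, so the leg is no independent replicate of the jaw. Of the 1246 genes from the sums, 963 were tested in both muscles. Cybotes and sagrei lay on the same side in both muscles in 734 of them (76.2%), in jaw alone in 100, in leg alone in 124 and in neither in 5.

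**Figure D5:**
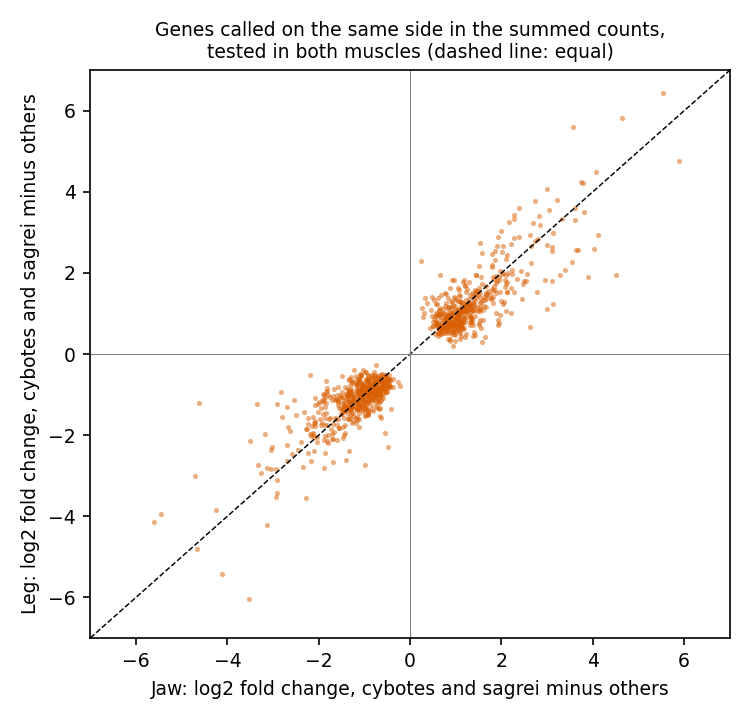
Log2 fold change of cybotes and sagrei minus chlorocyanus and osa in jaw (horizontal) and leg (vertical) for the 963 genes called on the same side in the summed counts and tested in both muscles; the dashed line marks equal values. All 963 have 1 sign in both muscles, a direction that their choice on the sum of both muscles favours.

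Whether the trunk-ground difference changed from jaw to leg was tested over all 24 libraries. Without regard to title numbers, edgeR called none of 9123 genes (0%). At an unadjusted p under 0.05 edgeR counted 293 genes in this fit, against 967 in the fit with the title number as a block. Also without the block, limma voom called 0 genes and DESeq2 4. With the title number as a block, which compares leg and jaw within an animal, edgeR called 29 genes (0.318%), 15 with a larger trunk-ground minus other difference in leg and 14 with a smaller one. The sizes of these changes ran from 0.94 to 3.62 on the log2 scale. Among the 29 genes, 5 belonged to the 1246, which were 12.6% of all genes tested in the sums. The count of genes called with the block depended on single animals. It was 9 without chlorocyanus 06, 11 without osa 07, 17 without cybotes 03, 53 without sagrei 17 and 71 without cybotes 01.

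The gene with the smallest p in that test ran in osa in the direction between muscles opposite to that of the other species. Its mean level in jaw and leg was 3.72 and 104 CPM in cybotes and 28.6 and 81.8 CPM in sagrei (n = 3). In osa it was 231 CPM in jaw and 47.4 CPM in leg, and in chlorocyanus 28.0 and 53.3 CPM. The level was thus higher in leg in cybotes, sagrei and chlorocyanus and lower in leg in osa. The rise was by far the largest in cybotes. The trunk-ground minus other difference was larger in leg than in jaw by 3.62 on the log2 scale (SE 0.46, adjusted p = 0.00197 by edgeR with the block).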

How the data were processed

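RNA sequencing was made from whole jaw and leg muscle of 4 species. Per the labels' protocols, RNA was extracted with Trizol and BGI made the libraries. The submitters' processing notes name STAR. The genome build, the annotation, the counting tool and the strand setting were not given in the sources used here. The authors deposited raw counts for 25920 identifiers in 24 columns, 8688 of them without counts, and library totals ran from 1315319 to 1962685. All columns were used.

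Groups came from the titles. That a title number marks 1 animal was taken from the data. Its jaw and leg libraries deviated together from their group means (correlations 0.296 to 0.740 in 12 pairs). Nothing else says how replicates were drawn. Replicates differed beyond counting noise (chi-square per degree of freedom 7.30 to 61.3).

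Counts were summed per title number, kept by filterByExpr over species (9908 genes), scaled by TMM and fitted with edgeR 4.0.16 in R 4.3.3 as 4 species means with 8 residual degrees of freedom. CPM are TMM-scaled. The SE of a contrast is its absolute value divided by the square root of F. Log2 CPM for components and variance used a prior count of 2. Within-muscle tests used the same function, and leg-minus-jaw tests another with the same edgeR steps. Both functions were run on simulated data. The outcome is not reported here, so nothing is read from it about error rates in these data. Alternatives were other scalings and filters, DESeq2 1.42.0, limma voom 3.58.1, a fold minimum, a replicate block and each title number left out. Genes named are the first 2 per direction by the gap, among called genes without overlap and with at least 10 CPM on the higher side. The gene lists made for this comparison need symbols and were not used here. The comparison, its rules and its lists were chosen with earlier results of these data known. The gene of highest abundance, the single-species counts and the leading gene of the muscle test were chosen after their values were seen.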

Additional observations from a re-analysis of the deposited data

Results flagged for a closer look

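Over 16 groups of 6 profiles (4 named genes and 4 technical measures in each species pair), 2 held a profile far from the other 5. For draws from 1 normal population, chance flags about 1 group in 20. These groups mix 2 species and the named genes were chosen on the same profiles, so that rate need not hold here. In ENSACAG00000028945, sagrei 17 stood at 72.7 CPM, where the other cybotes and sagrei profiles reached at most 26.0 CPM. The share of counts taken by the 10 most abundant genes was 19.9% in chlorocyanus 08, where the other chlorocyanus and osa profiles had at least 27.2%. The trunk-ground difference itself differed between leg and jaw in 29 genes when tested within title numbers (edgeR, Benjamini-Hochberg adjustment). It did so in none without the block, in a fit that leaves out the pairing of the libraries.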

How the results depend on the processing

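Of 373 recomputed counts and shares, 336 stayed within 1.5 times the reported value. These include the variance shares of the pairings, which add up to a fixed whole and could hardly move so far. They also include counts of 0 that stayed at 0. A count can stay while its genes change. Of the 1246 trunk-ground genes, 48.5% were called in all 12 fits that left out a title number. A mean of at least 10 CPM gave 1071 called genes for the trunk-ground and 1347 for the Norops contrast, 58, 100 and 54 genes with all 4 tests called in the trunk-ground pairing, the Norops pairing and the third pairing, and for the Norops pairing 1041 genes on the same side and 315 without overlap; fewer genes were tested. Asking for at least 2-fold gave 1072, 1400 and 1179 called genes. As each title number was left out, the counts with all 4 tests called ran from 58 to 97, from 98 to 186 and from 43 to 98. The trunk-ground genes called on the same side ran from 974 to 1322. They were 808 of 6314 genes tested at the 10 CPM minimum and 1493 of 17232 with no low-count filter, beside 1246 of 9908. The filters change the number tested, so these counts are not on 1 base. In leg alone, 1283 were called with no low-count filter. With the title number as a random replicate block over 24 libraries (limma voom), 1213 of 9123 genes were called on the same side for the trunk-ground pairing. The Norops pairing then had 1696 and the third 1450. The leg minus jaw test called 0 or 1 gene as numbers were left out, 10 with no low-count filter, 4 by DESeq2 and 29 with the replicate block, where leaving out numbers gave 9 to 71. The cause was not tested. By the upper quartile, the third pairing without overlap split into 224 higher and 135 lower. The 4 named genes kept their direction and call in each setting that tested them. DESeq2 gave no adjusted p for ENSACAG00000028945, and ENSACAG00000017897 was below the 10 CPM minimum. The largest shift of the median log2 fold change of all genes was -0.06, with library sizes without the 20 most abundant genes. Low depth limits the named lower genes, which had 4 to 14 counts per trunk-ground profile.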
